A study of Mus musculus with 20 samples.

Results

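The 72 cytosolic ribosomal protein genes measured on these arrays are those among 17097 genes whose symbol is Rpl or Rps followed by a digit, or is Rplp0, Rplp1, Rplp2 or Rpsa, with S6 kinases and pseudogenes set aside. They comprise 38 proteins of the large (60S) subunit, 3 of its stalk, 24 of the small (40S) subunit, 6 paralogs (Rpl22l1, Rpl36al, Rpl39l, Rpl3l, Rpl7l1 and Rps27l) and Rps19bp1, which the symbol rule takes although it encodes a protein that binds Rps19. The 65 subunit and stalk proteins are most of the 78 such genes listed for the mouse, and the other 13 were not analysed here. Each gene was read from its brightest probe set, and no gene was left out for a low level. For 24 members that probe set is of a kind whose probes can also bind related transcripts, and ribosomal protein genes have many processed pseudogenes, so reads of near-identical copies cannot be told apart there.

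Ribosomal proteins fold with the ribosomal RNAs into the subunits that translate every cytosolic mRNA, and a dividing or secreting cell such as a collagen-making fibroblast spends much of its RNA output on them. Their mRNAs are transcribed together and begin with a cytosine and a run of pyrimidines, the terminal oligopyrimidine (TOP) motif, through which the kinase mTORC1, a sensor of nutrients and growth factors, sets how strongly they are translated. Mature ribosomes hold nearly every such protein, while some paralogs replace their parent protein in particular tissues or act in assembly.

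Fibroblasts were sorted from the dermis of females, with 1 array per mouse and 5 mice in each of 4 groups; the strain is not given in the sources used here. Young ND mice were 4 weeks old and ate a normal diet (ND) freely for 4 weeks, and their age at collection is not stated. All other mice entered at 9 months of age and were killed at 18 months. The normal diet was given throughout those 9 months in Old ND. Old CR mice had 2 months of it and then 7 months at 30% caloric restriction (CR), and in Old CR-ND the 7 restricted months came before 2 months of normal feeding. The sort kept cells with surface Pdgfra and CD34 and removed those with CD45, CD117, CD24, CD31 or EpCAM, and the cDNA of each sample was amplified over 20 cycles. In bulk RNA of this kind, fewer cells of a type and less RNA per cell cannot be told apart.

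The fibroblast genes Col1a1 and Cd34 were high and Pdgfra was not, and genes of another skin cell type were measured as well. Col1a1 averaged 12.83 to 13.33 and Cd34 11.01 to 11.30 over the groups, Pdgfra lay near the median gene (5.71 to 6.20), and Ptprc (the CD45 gene) stayed at 3.24 to 3.26 and Kit at 3.34 to 3.39, at the bottom of a scale that runs from 2.71 to 13.46. Some keratinocyte genes lay above the median gene too, although EpCAM-bearing cells were sorted out. Krt5 read 7.60 to 10.49 over the arrays and Krt10 6.56 to 9.51, with group means of 8.69 to 9.36 and 7.68 to 8.14. Krtdap lay below the median gene on every array (4.30 to 5.75), and Krt15 (5.03 to 6.27) and Krt1 (4.99 to 7.91) lay on both sides of it. The part of keratinocyte genes in the results was not tested. Cd24a, whose protein was sorted against, lay at 6.73 ± 0.49 (SD, n = 5) in Young ND against 5.56 ± 0.30 in Old ND, 4.83 ± 0.15 in Old CR and 5.43 ± 0.43 in Old CR-ND. The arrays are numbered in 2 runs, of 13 and 7 arrays, with 3 and 2 arrays of each group except Old CR, which has 4 and 1. Differences below are log2 fold changes ± standard error from limma, with p adjusted by Benjamini-Hochberg over all 17097 genes and a call at an adjusted p under 0.05. Precision is limited by the number of arrays: the median standard error was 0.089 for the members and 0.096 for all genes.

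RefSeq's start sites (GRCm38.p6) were matched for 58 of the 72 members. The first bases of several are shown because the TOP run is known from mRNAs of this family and was present in a minority of the annotated starts. Each stretch starts 10 bases before the annotated start, runs 5′ to 3′ over 30 bases, and has a pyrimidine run that begins with C at the start site in capitals. Rps6 and Rplp2 are shown with Rps21 (the first of its 2 annotated starts), which carries the run and rose in Old ND, and then 3 genes that changed and have no such run at their annotated start.
Rps21, chr2:180257369-180257398, plus strand: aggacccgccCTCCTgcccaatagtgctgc
Rps6, chr4:86857348-86857377, minus strand: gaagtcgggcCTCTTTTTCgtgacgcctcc
Rplp2, chr7:141447641-141447670, plus strand: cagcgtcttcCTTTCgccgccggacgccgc
Rps9, chr7:3704031-3704060, plus strand: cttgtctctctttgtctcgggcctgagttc
Rps4x, chrX:102189372-102189401, minus strand: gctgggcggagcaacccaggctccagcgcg
Rpl7l1, chr17:46782637-46782666, minus strand: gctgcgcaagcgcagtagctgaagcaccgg

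A C at the annotated start followed by at least 4 further pyrimidines was present in 11 of the 58 members with a RefSeq start (19.0%), all of them among the 51 subunit and stalk proteins (21.6%), and in 3.0% of the 13605 tested genes with a start. Annotated starts can lie some bases away from the true one. A C followed by at least 7 pyrimidines anywhere from 20 bases before to 30 after the start was found in 28 members (48.3%) and in 18.2% of tested genes. The letters CCGGAAG, the core bound by GABP and other Ets factors, occurred on either strand of the 300 bases around the start in 25 members (43.1%), against 15.0% of tested genes. Rps21, Rps6 and Rplp2 held these letters, and Rps9, Rps4x and Rpl7l1 did not. These matches describe letters in a window and are not measured binding sites.

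Ribosomal protein probe sets lay high on the array scale, although brightness also depends on each probe set's own sequence, so it does not order the mRNAs by amount. Of the members, 69 lay above the median gene (5.88) and 56 at 10 or above, a height reached by 3.71% of all genes; the members' median was 10.97. Rps2, at the mRNA entry of the 40S subunit, read 12.60 over the 20 arrays, Rpl35a 12.22 and Rps6, the substrate of the S6 kinases, 12.20. The 3 below the median gene were Rps15a (5.09), the muscle paralog Rpl3l (5.37) and Rpl14 (5.71), where background compresses the scale. Rpl4, Rps16 and Rpl41 were the steadiest, with a residual SD within groups of 0.056, 0.061 and 0.063. Rpl22l1 (0.395), Rps13 (0.346) and Rps27l (0.318) spread most, against a median of 0.14 for the members and 0.155 for all genes.

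Old ND against Young ND tests the effect of age on an unrestricted diet. Ribosomal protein mRNAs were slightly higher in the old fibroblasts across both subunits: 65 of 72 members had a higher mean, the median difference was 0.194 (1.14-fold), and the middle members lay between 0.103 and 0.254. Over all genes the median was 0.002 and 50.5% had a higher mean. Single members passed the test far less often than they leaned this way. In limma, 9 rose (all genes 4.45%) and 1, Rpl7l1, fell (all genes 6.49%), which makes 13.9% of the members called against 10.9% of all genes. At an unadjusted p under 0.05 there were 42 members, against 23% of all genes.

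**Figure D1:**
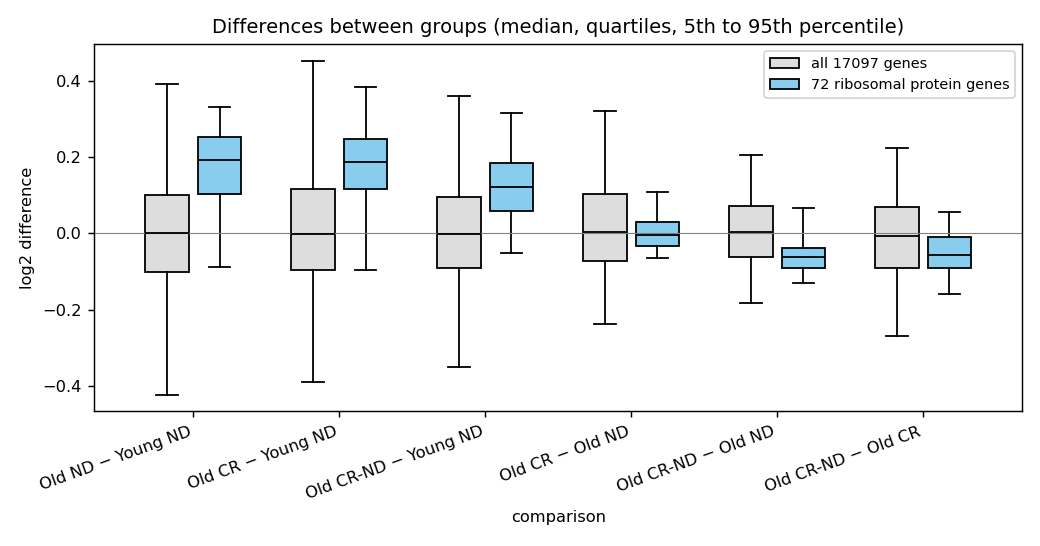
Log2 differences between groups for all 17097 genes (grey) and the 72 ribosomal protein genes (blue), with the median, quartiles and 5th to 95th percentiles. The members' boxes lie above zero in the 3 comparisons with Young ND (medians 0.194, 0.187 and 0.123), which share the Young ND arrays. The box of Old CR against Old ND spans zero (median -0.004). Those of Old CR-ND against Old ND (median -0.061) and against Old CR (median -0.058) lie slightly below zero.

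In the small subunit, all 24 genes had a higher mean in Old ND (all genes 50.5%), with a median difference of 0.194, and 4 rose (all genes 4.45%). Rps21 read 10.77, 10.71, 10.96, 10.79 and 10.95 in the Young ND arrays and 11.20, 10.99, 11.08, 11.23 and 11.22 in Old ND. Every Old ND array lay above every Young ND array, by 0.31 ± 0.07 on average (adjusted p = 0.00596). Rps4x, the X-linked Rps4 gene, read 10.83 to 11.03 in Young ND and 11.18, 11.01, 11.14, 11.32 and 11.30 in Old ND. Old ND replicate 2 was the array that reached into the young range, and the difference was 0.28 ± 0.07 (adjusted p = 0.00729).

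Rps9, which lines the channel where mRNA enters, read 9.25, 9.39, 9.58, 9.60 and 9.75 in Young ND and 10.06, 9.64, 9.86, 10.10 and 10.26 in Old ND. Again Old ND replicate 2 overlapped the young arrays, and the rise of 0.47 ± 0.11 (1.39-fold, adjusted p = 0.00821) was the largest of the called rises. Rps14, a protein of the 40S platform, rose by 0.23 ± 0.07 (adjusted p = 0.0434), from 11.07 to 11.22 in Young ND to 11.20 to 11.49 in Old ND. Rps23, which sits in the decoding centre, was tight in Young ND (10.73 to 10.81) and wide in Old ND (10.72, 10.93, 11.12, 11.22 and 11.26), and its difference of 0.28 ± 0.09 missed the threshold (adjusted p = 0.0577). Rps13 had the largest difference of the list, 0.49 ± 0.20, with wide overlap of the groups (8.29 to 9.41 and 8.78 to 9.73) and an adjusted p of 0.136. Rps6 differed by 0.08 ± 0.07 and Rpsa, also known as the laminin receptor, by 0.10 ± 0.06, and neither passed.

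In the large subunit, 36 of 38 genes had a higher mean in Old ND (all genes 50.5%) and the median difference was 0.208. The exceptions were Rpl14 (-0.09 ± 0.17) and Rpl41 (-0.02 ± 0.05). The 5 that rose (all genes 4.45%) were Rpl36a, Rpl6, Rpl30, Rpl21 and Rpl7. Rpl36a, an X-linked gene for a protein near the exit site of tRNA, read 7.53, 7.48, 7.64, 7.54 and 7.93 in Young ND and 8.29, 7.72, 7.85, 8.23 and 8.24 in Old ND. The highest young array overlapped the lower pair of old ones, and the rise was 0.44 ± 0.11 (1.36-fold, adjusted p = 0.0132). Rpl6 read 11.25 to 11.37 in Young ND and 11.42 to 11.70 in Old ND without overlap, a rise of 0.23 ± 0.06 (adjusted p = 0.0218). Rpl30 rose by 0.30 ± 0.08, Rpl21 by 0.39 ± 0.12 and Rpl7 by 0.28 ± 0.09 (adjusted p = 0.0229, 0.0315 and 0.0443).

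No stalk gene passed. Rplp1 and Rplp2, which form the flexible dimers that call elongation factors to the ribosome, differed by 0.23 ± 0.11 and 0.28 ± 0.12, and Rplp0, their base on the 60S subunit, by 0.06 ± 0.08. Rpl11, which binds Mdm2 when ribosome assembly stalls, differed by 0.14 ± 0.09 (adjusted p = 0.399). Fau, which encodes the 40S protein Rps30 fused to a ubiquitin-like part and lies outside the symbol rule, rose by 0.28 ± 0.09 (adjusted p = 0.0417). In 5 members all old arrays lay above all young ones (Rpl17, Rpl4, Rpl6, Rps16 and Rps21; all genes 2.84%), and in 1, Rpl7l1, all lay below (all genes 4.54%).

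**Figure D2:**
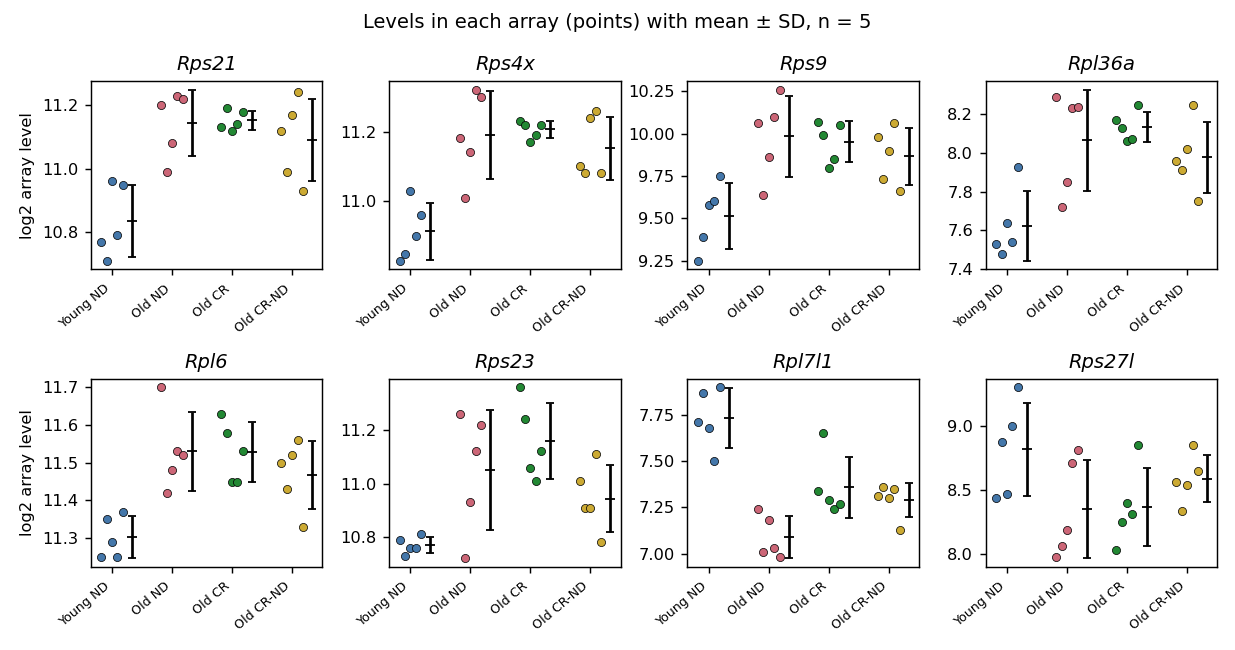
Log2 array level of 8 members in each array (points) by group, with mean ± SD (n = 5) beside them. The first 6 genes have higher means in each old group, Rpl7l1 is lowest in Old ND (6.98 to 7.24) and Rps27l overlaps between all groups.

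Among the paralogs, 5 of 6 had a lower mean in Old ND (median -0.171) and 1 fell. Over all genes 50.5% had a higher mean and 6.49% fell. Rpl7l1, the counterpart of a yeast factor of 60S assembly, read 7.71, 7.87, 7.68, 7.50 and 7.90 in Young ND and 7.24, 7.01, 7.18, 7.03 and 6.98 in Old ND. It fell by 0.64 ± 0.09 (a 36.0% lower level, adjusted p = 3.8e-05), and its 3 probe sets all pointed down (-0.644 to -0.236). Rps27l, a p53-induced relative of Rps27, read 8.44 to 9.30 in Young ND and 7.98 to 8.81 in Old ND. Its difference of -0.47 ± 0.18 did not pass (adjusted p = 0.119), but it passed with the run of array numbers as a block in limma (adjusted p = 0.00317). Rpl36al, an autosomal copy of Rpl36a, differed by -0.25 ± 0.10, Rpl39l by -0.10 ± 0.09, Rpl3l by -0.03 ± 0.08 and Rpl22l1 by 0.07 ± 0.23. Rps19bp1, described as a partner of Sirt1, differed by 0.18 ± 0.11.

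Each paralog except Rps27l, whose parent Rps27 is not among the members, was also set against its parent within the arrays. These 5 pairs were chosen after the values were seen, so the differences are a description with no test. The Rpl7 level minus the Rpl7l1 level averaged 2.69 ± 0.18 (SD, n = 5) in Young ND, and the old groups lay 0.92 (Old ND), 0.62 (Old CR) and 0.62 (Old CR-ND) above that. For Rpl36a and Rpl36al the same measure lay 0.69, 0.79 and 0.56 above Young ND, and for Rpl39 and Rpl39l 0.41, 0.40 and 0.44 above. The differences were 0.26, 0.22 and 0.14 for Rpl3 and Rpl3l and 0.12, 0.34 and 0.23 for Rpl22 and Rpl22l1. The 3 old groups share the Young ND arrays. Rpl7 and Rpl36al were read on probe sets whose probes can also bind related transcripts, so parent and paralog may not be fully separate there. Rpl3l (5.37) lay below the median gene, where background compresses the scale.

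The lean of the members was not shared evenly by the old mice. The median deviation of the 72 members from their own means was 0.153, -0.141, -0.037, 0.166 and 0.180 in the 5 Old ND arrays and -0.166, -0.183, -0.142, -0.093 and 0.032 in Young ND. Old ND replicate 2 had 2 of 72 members above their means, replicate 4 had 64, and Young ND replicate 5 had 44 where the other young arrays had 3 to 12. Old ND replicate 2 also had the lowest upper quartile of all arrays (6.75, others 6.81 to 6.92) and the highest 18S signal (13.08, others 12.74 to 12.95), and Old ND replicate 1 the highest summed level of 9 keratinocyte markers (12.04; Old ND 9.45 to 12.04, Young ND 9.80 to 11.12). The part of these in the result was not tested. The first principal component of the members held 60.5% of their variance and 63.4% once group means were removed, against 26.9% and 28.2% over all genes. A leading component of like share thus remained within groups, where differences between runs and arrays remain too. Whether it was the same component was not tested.

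**Figure D3:**
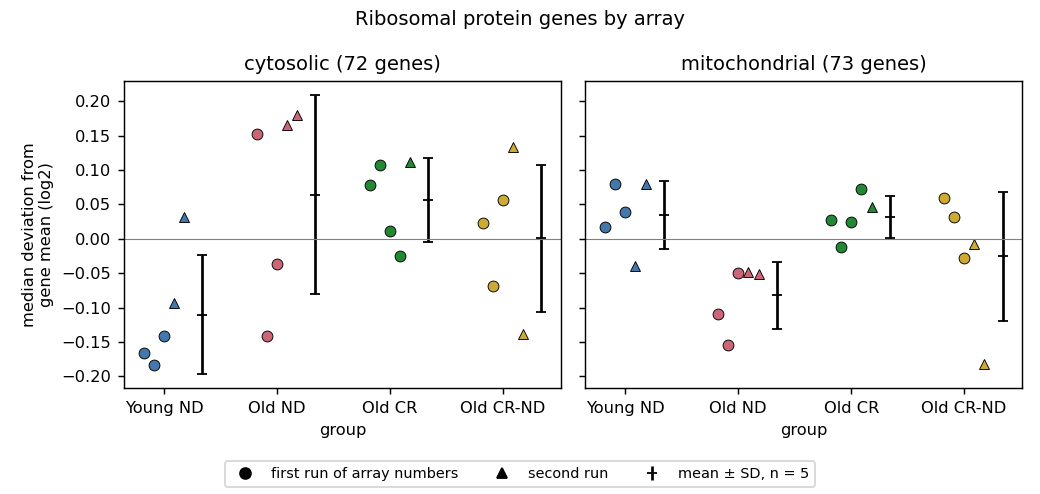
Median log2 deviation from the gene means over the 72 cytosolic (left) and 73 mitochondrial (right) ribosomal protein genes in each array, by group, with mean ± SD (n = 5); circles and triangles mark the runs of array numbers. Cytosolic medians are lowest in Young ND (-0.183 to 0.032) and span -0.141 to 0.180 in Old ND, while mitochondrial medians are all below zero in Old ND (-0.155 to -0.048).

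**Figure D4:**
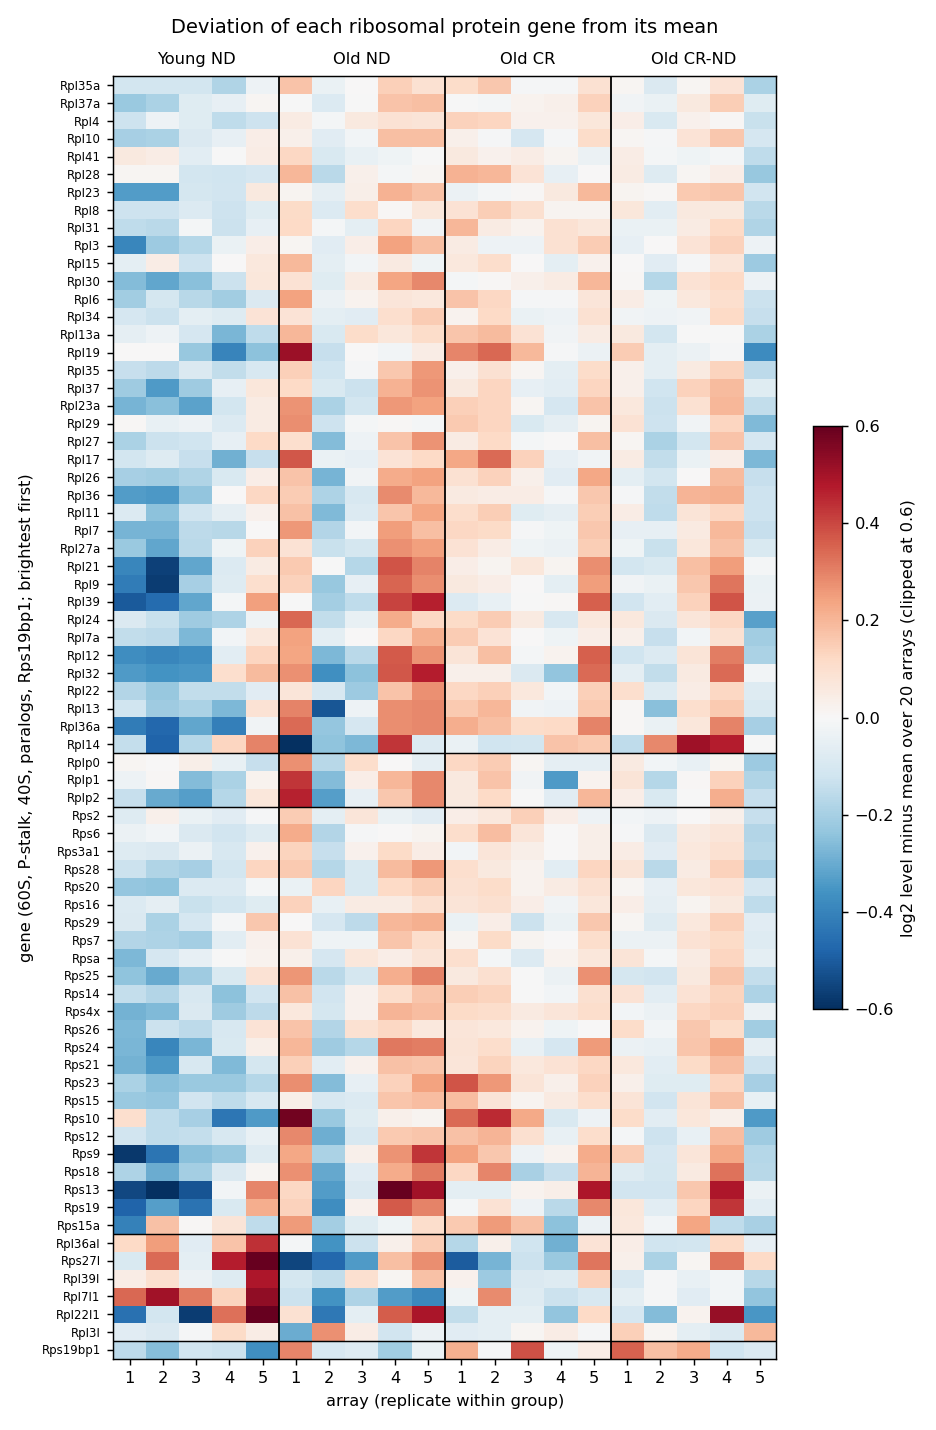
Log2 level minus the gene's mean over 20 arrays for the 72 members (rows, by subunit, brightest first) in each array (columns, by group); colours are clipped at 0.6. Most rows are blue in Young ND replicates 1 to 4, Old ND replicate 2 and Old CR-ND replicates 2 and 5, and red in Old ND replicates 1, 4 and 5, Old CR replicates 1, 2 and 5 and Old CR-ND replicate 4. In the other arrays the rows are more mixed. More lie below their means in Old ND replicate 3 (47 of 72) and Old CR replicate 4 (45). More lie above in Old CR-ND replicates 3 (55) and 1 (46), Young ND replicate 5 (44) and Old CR replicate 3 (41).

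The number of members called between Old ND and Young ND moved with single arrays. The 10 calls became 31 without Old ND replicate 2 (all genes 10.3%), 6 without Old ND replicate 1 or 4 (9.82% and 10.5%), 5 without Young ND replicate 1 (10.3%) and 6 without Young ND replicate 2 or 3 (8.5% and 10.5%). The median difference stayed between 0.164 and 0.241. Rpl7l1, Rps21, Rps4x, Rps9 and Rpl36a were called with any 1 array left out, and Rpl6, Rpl30, Rpl21, Rps14 and Rpl7 were not. Of the former, Rpl7l1 alone was also called under every other setting tried. Rps4x and Rpl36a lost the call with only the groups compared and within either run of array numbers. Rps21 lost it within either run, and Rps9 within the second. With the run of array numbers as a block in limma, 23 rose and 2, Rpl7l1 and Rps27l, fell, beside calls in 15.0% of all genes. Within the runs the median difference was 0.165 and 0.218, with 6 and 1 members called (all genes 8.74% and 6.14%). The count also moved with normalization: 28 members were called after quantile normalization once more (all genes 12%) and 6 with each array centred on its median (11%).

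Ribosomal protein genes were also set beside genes of like brightness. Among genes at level 10 or above, 96.4% of the 56 members and 42.9% of all genes had a higher mean in Old ND, with medians of 0.197 and -0.041, and 22 members passed where 31.5% of these genes did. The 3′ minus 5′ signal of Actb was -0.73 ± 0.07 (SD, n = 5) in Young ND and -0.78 ± 0.09 in Old ND, and that of Gapdh 0.03 ± 0.07 and 0.00 ± 0.07. That of Tfrc was lower in the old groups: -0.54 ± 0.11 in Young ND, -0.70 ± 0.12 in Old ND, -0.66 ± 0.10 in Old CR and -0.71 ± 0.08 in Old CR-ND. Blood cell markers (10 measured, 1 higher, Cd74) summed to 9.29 to 9.66 in Old ND and 8.93 to 9.19 in Young ND, with Ptprc near the bottom of the scale in both, and 3 of 10 fibroblast markers (Col1a1, Col3a1 and Cd34) were lower, summing to 15.13 to 15.27 and 15.32 to 15.40. Of 8 endothelial markers Tek was higher by 1.02 (summed level 7.99 to 8.57 in Old ND, 8.02 to 8.63 in Young ND), and of 5 melanocyte and Schwann cell markers Mitf by 0.63 (8.28 to 9.04 and 8.33 to 8.52). Of 5 mural cell markers Des was lower by 0.35 (7.96 to 8.33 and 8.03 to 8.24), and 0 of 9 keratinocyte markers passed in limma. The part of these measures in the result was not tested.

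Several members were read by more than 1 probe set, and 24 of these 34 had the same sign on all of them. Of the 135 probe sets, 114 had a higher mean in Old ND (84.4%, against 49.7% of the probe sets of all genes), 20 rose and 2 fell, beside calls in 10.7% of all probe sets. Rpl41 is the main exception: its brightest probe set (11.95) gave -0.02 and did not pass, another gave 1.02 (adjusted p = 0.00554, limma), and the mean of its 4 probe sets gave 0.50 (adjusted p = 0.00849). Rps20 ranged from 0.18 on the brightest (11.82) to 0.63 on another probe set.

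Other genes of the translation machinery did not all lean with the ribosomal proteins. Over all genes 50.5% had a higher mean in Old ND, 4.45% rose and 6.49% fell. Of 11 measured elongation factors and other TOP mRNAs, 10 had a higher mean in Old ND with a median of 0.168, and 0 passed in limma; Gas5, a noncoding host of snoRNAs with a TOP start, had 0.40 ± 0.14 (adjusted p = 0.086). Of 28 initiation factors, Eif4b rose by 0.34 ± 0.07, while Eif3b fell by 0.37 ± 0.09 and the cap-binding Eif4e by 0.59 ± 0.17, with a median of -0.034 for the list. Of 48 ribosome biogenesis factors, 5 rose and 1 fell around a median of 0.010. Nucleolin (Ncl) rose by 0.84 ± 0.16 (adjusted p = 0.00162), Nop53 by 0.52 ± 0.13, Nop2 by 0.47 ± 0.13 and Rrp9 by 0.31 ± 0.09. Among 15 genes that control TOP mRNAs or mTORC1, Eif4ebp1, which blocks Eif4e, fell by 0.41 ± 0.09 and Larp1, which binds the TOP motif, by 0.48 ± 0.14, and Mycn rose by 0.32 ± 0.10.

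The mitochondrial ribosomal proteins, encoded in the nucleus for the separate ribosome of mitochondria, leaned opposite to the cytosolic ones. Of 73 measured, 9 fell and 0 rose in Old ND (all genes 6.49% and 4.45%). The median was -0.150 (all genes 0.002), and 19 had a higher mean (50.5% of all genes). Mrpl43 fell by 0.52 ± 0.12, Mrpl54 by 0.48 ± 0.10, Mrpl42 by 0.40 ± 0.08 and Mrpl36 by 0.35 ± 0.08 (adjusted p from 0.00317 to 0.00628).

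**Figure D5:**
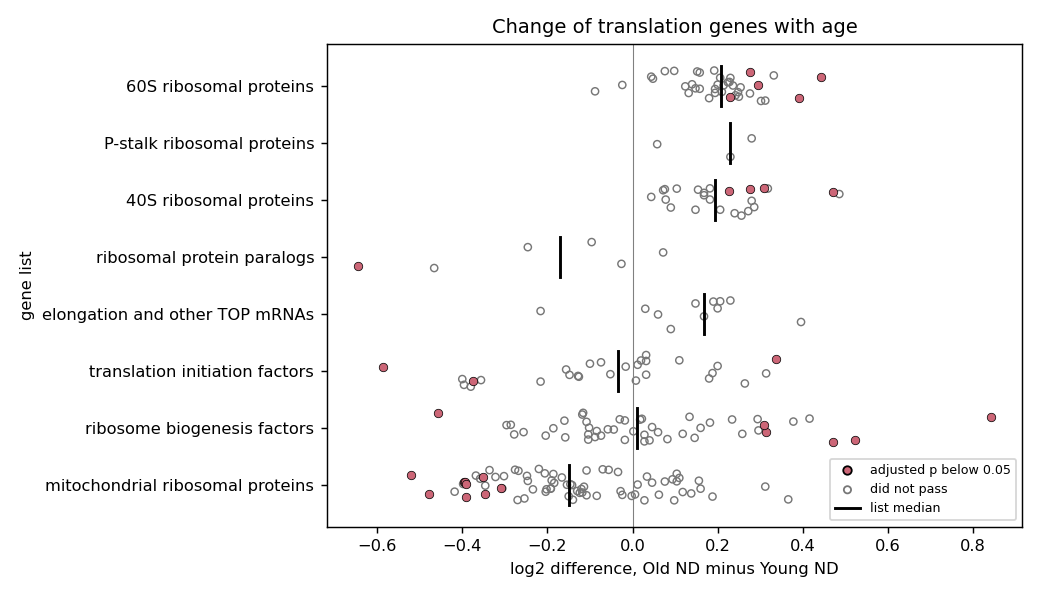
Log2 difference of Old ND minus Young ND for each gene of 8 translation lists; filled points passed an adjusted p of 0.05 and bars mark list medians. The 60S, stalk and 40S genes centre on 0.208, 0.230 and 0.194, the paralogs on -0.171, biogenesis factors on 0.010 and mitochondrial ribosomal proteins on -0.150.

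Old CR against Old ND tests 7 months of late restriction. Differences of the members were small: 32 had a higher and 40 a lower mean, the median difference was -0.004, and 71 of 72 differences were under 0.2 in size. In limma 0 members passed in either direction (all genes 1.57% higher and 0.819% lower, 2.39% in all), and 1 had an unadjusted p under 0.05, against 14.5% of all genes. That member was Rpl7l1, which read 7.34, 7.65, 7.29, 7.24 and 7.27 in Old CR against 6.98 to 7.24 in Old ND, a difference of 0.27 ± 0.09 (adjusted p = 0.119). The 95% interval of the difference lay within 0.3 in either direction for 55 members and reached from -0.64 to 0.53 over all of them, so small differences of single genes remained undetectable with 5 arrays. No member was without overlap in either direction (all genes 2.22% and 1.02%).

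Among the other lists in the same comparison, Nop58, the core of box C/D snoRNPs, rose by 0.44 ± 0.11 and Nop14 by 0.41 ± 0.11 (adjusted p = 0.0416 and 0.0484), and the mTORC1 inhibitor Ddit4 rose by 0.71 ± 0.16 (adjusted p = 0.0193). Of the 73 mitochondrial ribosomal proteins, 58 had a higher mean in Old CR (51.4% of all genes), with a median of 0.116 (all genes 0.004). In limma 0 of them passed, with Mrpl40 (0.36 ± 0.10, adjusted p = 0.0559) nearest. The median deviation of the members in the Old CR arrays, 0.078, 0.108, 0.011, -0.025 and 0.112, fell inside the range of Old ND. Of the blood cell markers Cd74 was lower in Old CR by 0.61 (summed level 9.15 to 9.55, Old ND 9.29 to 9.66), and its part was not tested. Within the runs the members' median difference was 0.049 and -0.045, the second run holding 1 Old CR array.

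Against Young ND, which enters all comparisons with age, the Old CR fibroblasts showed the members higher as well. Of the 72, 66 had a higher mean, the median difference was 0.187 (1.14-fold; all genes -0.002), 15 rose (all genes 7.11%) and 1, Rpl7l1, fell (all genes 5.56%), 22.2% of the members against 12.7% of all genes. All 38 large-subunit and all 24 small-subunit genes had a higher mean (all genes 49.1%), with 7 rises in each list. Rpl36a read 8.17, 8.13, 8.06, 8.07 and 8.25 in Old CR, above every young array, and rose by 0.51 ± 0.11 (adjusted p = 0.00405). Rps4x read 11.23, 11.22, 11.17, 11.19 and 11.22, a rise of 0.29 ± 0.07 (adjusted p = 0.00422), and Rps21 11.12 to 11.19, a rise of 0.32 ± 0.07 (adjusted p = 0.00431). In Old ND the same genes had read 11.01 to 11.32 and 10.99 to 11.23.

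Rps23 read 11.36, 11.24, 11.06, 11.01 and 11.12 in Old CR, all above Young ND (10.73 to 10.81), and rose by 0.39 ± 0.09 (adjusted p = 0.00715). Rps9 rose by 0.44 ± 0.11 (adjusted p = 0.0118), Rps15 by 0.25 ± 0.07, Rpl6 by 0.23 ± 0.06 and Rpl4 by 0.18 ± 0.05 (adjusted p = 0.0185, 0.0205 and 0.0273). The remaining rises had adjusted p from 0.0392 to 0.0492: Rps14 (0.23), Rpl13a (0.22), a protein with a second role in silencing inflammatory mRNAs, Rps20 (0.20), Rpl17 (0.28), Rpl22 (0.24), which developing T cells depend on, Rps19bp1 (0.33) and Rpl8 (0.18). Rpl7l1 fell by 0.37 ± 0.09 (adjusted p = 0.00641), with Old CR replicate 2 (7.65) inside the young range. In 20 members all Old CR arrays lay above all young ones (all genes 5.62%) and in 0 below (all genes 4.77%).

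Marker genes of other cells differed in this comparison too. Tek was higher by 1.63 (endothelial list 8.40 to 8.61 in Old CR, 8.02 to 8.63 in Young ND), Mitf by 1.25 (melanocyte and Schwann list 9.05 to 9.21 and 8.33 to 8.52) and Cd68 by 1.03 (blood list 9.15 to 9.55 and 8.93 to 9.19), each 1 call in its list. Col1a1, Col3a1 and Thy1 were lower, with the fibroblast list at 15.15 to 15.32 against 15.32 to 15.40, and 0 of 9 keratinocyte markers passed in limma. Their part in the result was not tested.

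The 16 calls became 6 without Old CR replicate 1 (all genes 10.5%), 8 without Old CR replicate 2 or Young ND replicate 4 (11.1% and 10.6%), 9 without Young ND replicate 1 (11.1%) and 10 without Young ND replicate 2 or Old CR replicate 3 (11.1% and 10.6%). Rpl36a, Rps4x, Rps21, Rps23, Rps9 and Rpl7l1 were called with any 1 array left out, and the other 10 were not. With the run as a block 28 rose and 2, Rpl7l1 and Rps27l, fell (all genes 15.2%). Within the first run 16 passed (9.79%) with a median of 0.241, and within the second, which holds 1 Old CR array, 0 passed in limma (3.37%) with a median of 0.165. The count was 8 with arrays centred (12.1%) and 9 with a trended and robust prior in limma (12%).

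Return to the normal diet is read from Old CR-ND. Against Young ND, 63 of 72 members had a higher mean with a median difference of 0.123 (1.09-fold; all genes -0.002), and 2 rose (all genes 3.22%) and 1 fell (all genes 3.82%), 4.17% of the members against 7.04% of all genes. Rps4x read 11.10, 11.08, 11.24, 11.26 and 11.08, above all young arrays, a rise of 0.24 ± 0.07 (adjusted p = 0.0286). Rps21 rose by 0.25 ± 0.07 (10.93 to 11.24, adjusted p = 0.0311). Rpl7l1 read 7.31, 7.36, 7.30, 7.35 and 7.13, below all young arrays, and fell by 0.44 ± 0.09 (adjusted p = 0.00279). Rps9 (0.35 ± 0.11) and Rpl36a (0.35 ± 0.11) missed the threshold (adjusted p = 0.0654 and 0.0656). Rps4x was the only member without overlap above the young arrays (all genes 3.08%) and Rpl7l1 the only one below (all genes 3.51%). The 3 calls became 1 without Young ND replicate 1, 2 or 4 or without Old CR-ND replicate 3 (all genes 4.62% to 6.38%), and 5 without Young ND replicate 5 or Old CR-ND replicate 5 (5.64% and 6.4%). With the run as a block 8 rose and 1 fell (10.3%), and within the runs 8 and 0 passed (4.65% and 3.63%), with medians of 0.172 and 0.050. Keratinocyte markers leaned higher in Old CR-ND, with a median of 0.466 and 7 of 9 positive against Young ND and 0.454 and 8 of 9 against Old ND, though 0 passed in limma in either; their summed level was 10.23 to 11.38. Tek was higher than in Young ND by 1.43 (endothelial list 8.37 to 8.90) and Col1a1 lower by 0.41 (fibroblast list 15.19 to 15.37), while 0 of 10 blood cell markers passed (9.25 to 9.69). The part of these markers in the results was not tested.

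Against Old ND, 64 of 72 members had a lower mean in Old CR-ND, with a median difference of -0.061 (0.96-fold; all genes 0.004, with 51.7% higher against 11.1% of the members), and 0 passed in limma (all genes 0.00585% higher and 0% lower; 2 members and 5.08% of all genes at an unadjusted p under 0.05). The smallest p-values were those of Rpl7l1 (0.20 ± 0.09), Rpl14 (0.38 ± 0.17) and Rpl7a (-0.15), with adjusted p of 0.935 for Rpl7l1. The median difference was 0.007 in the first run but -0.175 in the second, in which Old CR-ND replicates 4 and 5 had medians of 0.134 and -0.139. Without Old CR-ND replicate 5 it was -0.028, without Old ND replicate 2 it was -0.106. Old CR-ND replicate 5 had 2 of 72 members above their means, as did Old ND replicate 2. Its upper quartile (6.81) was the lowest after that of Old ND replicate 2 (6.75), and the part of this in the result was not tested.

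Against Old CR, which shares its arrays with the comparisons above, 58 members had a lower mean in Old CR-ND with a median of -0.058 (all genes -0.006, with 48% higher against 19.4% of the members). In limma 0 passed (all genes 0.123% higher and 0.211% lower), 3 had an unadjusted p under 0.05 (9.79% of all genes), and the smallest p-values were those of Rps23 (-0.21 ± 0.09), Rpl17 (-0.20 ± 0.09) and Rpl13a (-0.14 ± 0.07), with adjusted p from 0.429 to 0.509. The median was -0.023 without Old CR-ND replicate 5. No member was without overlap in this comparison (all genes 0.994% and 1.18%) or against Old ND (all genes 0.31% and 0.17%).

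Over the 4 groups, limma's F test called 7 members (9.72%, all genes 12.9%): Rpl36a, Rpl6, Rpl7l1, Rps21, Rps23, Rps4x and Rps9. The share lay near that of all genes. Young ND had the lowest of the 4 group means in 61 members and in 31.7% of all genes. Old CR-ND had the lowest mean of the old groups in 56 and in 29.2% of all genes. The F count was 13 without Old ND replicate 2 (all genes 13%), 3 without Young ND replicate 2 (9.83%) and 4 without Young ND replicate 1 (11.3%).

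The members also leaned with the run of array numbers. With the groups held constant, 55 of 72 had a higher mean in the second run and 17 a lower one. That is 76.4% higher, against 44.5% of all genes, with a median of 0.097 (all genes -0.015). In limma 22 members were called higher in the second run (all genes 5.73%) and 0 lower (all genes 11.4%). The calls made up 30.6% of the members, against 17.2% of all genes. Rps13 (0.55), Rps27l (0.52) and Rpl22l1 (0.52), the members with the widest spread within groups, were among the most shifted. Their spread was fitted without a term for the run, so a shift between the runs is itself part of it. Rps21 (0.06), Rps4x (0.07) and Rpl6 (-0.01) differed less between the runs.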

How the data were processed

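RNA of sorted dermal fibroblasts was read on 20 Affymetrix mouse arrays. The deposited log2 levels per probe set were computed by the authors with RMA (affy package), per the submitters' processing notes, which name no version, filter or batch correction. RMA is meant to equalize the arrays, so differences are relative to the other genes. The deposited levels were not fully equal among bright probe sets, where most members lie. The upper quartile ran from 6.75 in Old ND replicate 2 to 6.92 in Old CR replicate 2. A level near the top of each array was lowest in Old CR-ND replicate 5 (10.85) and Old ND replicate 2 (10.9), and reached 11.08 in Old ND replicate 1. The part of this in the results was not tested. An array has no read depth.

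Of 45141 probe sets, 28898 name 1 gene and were used, 551 name several and 15692 none. Symbols were updated through Entrez numbers against RefSeq (GRCm38.p6), which matched 28689 probe sets. The brightest probe set was kept per gene. One mean per group was fitted to all 20 arrays with limma 3.58.1 in R 4.3.3 (lmFit, eBayes, 16 residual and 4.19 prior degrees of freedom), two-sided, with Benjamini-Hochberg adjustment over 17097 genes. The script was tested on simulated data.

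The members, gene lists, tests and the rule for named genes were chosen with earlier results of these data known. The rule took members past the threshold (or the 3 smallest p), the 3 highest, lowest, steadiest and most variable, paralogs and a few well-known members, and up to 4 genes of each other list. Rpl3 and Rpl39 were named for their paralogs after values were seen. Alternatives covered probe sets, filters, normalization, moderation, array weights, runs, arrays left out and thresholds.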

Additional observations from a re-analysis of the deposited data

Results flagged for a closer look

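Among 124 groups of 5 arrays tested for an array far from the rest, 6 were flagged, and chance flags about 1 in 20 groups. Rpl7l1 was flagged in 2 groups. It read 7.65 in Old CR replicate 2, where the next array had 7.34, and 7.13 in Old CR-ND replicate 5, where the next had 7.30. Old CR replicate 5, which alone of its group is in the second run, was high for Rpl21 (10.80, next 10.59) and Rpl30 (11.68, next 11.53). Rpsa read 11.53 in Old ND replicate 2 (next 11.66), the array with the lowest median of the members in its group. Rpl17 read 10.53 in Young ND replicate 4 (next 10.68).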

How the results depend on the processing

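The median change of the members moved by less than the spread of the arrays (SD 0.104) under every alternative, except Old CR-ND against Old ND within the second run (-0.175). That SD is of single arrays and is a wide measure for a difference of group means. It exceeds the size of every median among the old groups (-0.004, -0.061 and -0.058). A median there could vanish or change sign and still count as unmoved, so this measure cannot show that it was stable. With single arrays left out the medians ran from 0.164 to 0.241 (Old ND against Young ND), 0.165 to 0.220 (Old CR against Young ND), 0.085 to 0.154 (Old CR-ND against Young ND), -0.054 to 0.022 (Old CR against Old ND), -0.106 to -0.028 (Old CR-ND against Old ND) and -0.091 to -0.023 (Old CR-ND against Old CR). The 3 comparisons among old groups had 0 members called under every alternative and with any array left out.

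Counts of members called moved more; the percentage called of all genes under the same setting stands in brackets. For Old ND against Young ND the 10 (10.9) became 17 with the mean of probe sets (12.4), 22 among genes at level 10 or above (31.5), 28 after quantile normalization once more (12), 6 with arrays centred (11), 19 with array weights (9.73), 3 with only the groups compared (7.85), 25 with the run as a block (15.0), 6 and 1 in the first and second run (8.74 and 6.14), 4 and 25 at thresholds of 0.01 and 0.1 (6.02 and 15.4), and 5 to 31 over arrays left out (8.5 to 10.8). For Old CR against Young ND the 16 (12.7) became 8 with arrays centred (12.1), 9 with a trended and robust prior (12), 30 with the run as a block (15.2), 0 in the second run (3.37), 5 and 26 at the other thresholds (7.16 and 17.2), and 6 to 16 over arrays left out (10.1 to 12.7). For Old CR-ND against Young ND the 3 (7.04) became 6 with the mean of probe sets (7.97), every probe set (6.54) and array weights (8.63), 5 among genes above the median gene (13.5), 10 after quantile normalization (7.9), 1 with only the groups compared (6.78), 9 with the block (10.3), 8 and 0 in the runs (4.65 and 3.63), 1 and 7 at the other thresholds (3.47 and 10.1), and 1 to 5 over arrays left out (4.62 to 6.94). The F test's 7 (12.9) became 13 with the mean of probe sets (14.4), 11 at level 10 or above (32.8), 18 after quantile normalization (13.7), 19 with the block (17.7), 0 in the second run (4.0), 3 and 14 at the other thresholds (6.66 and 17.4), and 3 to 13 over arrays left out (9.83 to 13.3). The cause was not tested; within runs fewer arrays entered the fit. Taking only the 65 subunit and stalk proteins, an alternative added after the data were seen, gave 9, 14, 2 and 6 calls.

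Rpl41 in Old ND against Young ND turned from -0.02 to 0.502 with the mean of probe sets (adjusted p = 0.00849, limma) and to 1.016 on its brightest probe set without shared probes (adjusted p = 0.00554), both past the threshold; its probe sets differ. Of the changes of single named members, 109 lost and 25 gained the call with an array left out and 2146 kept their side of the threshold. Most of these changes were not called with all arrays, and only called ones could lose a call. The 2146 are therefore mostly changes that stayed uncalled and do not measure how stable the calls were. No paired analysis was possible because the replicate numbers follow the order of the samples and the day of collection is not labelled. Precision is limited by 5 arrays per group, and background compresses dim levels.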
